A study of Rattus norvegicus with 60 samples.

Results

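Hyaluronan, versican and the proteins that bind them can form a provisional matrix in injured tissue. The RNA of 10 genes of that matrix and its proteases was followed here over the first days after a contusion of rat muscle. The genes were taken as a named set, with earlier results of these data known: the hyaluronan synthases Has1 and Has2, the hyaluronan cross-linkers Tnfaip6 and Ptx3, the proteoglycan versican (Vcan), the hyaluronan receptor Cd44, and the proteases Adamts1, Adamts4, Adamts5 and Adamts9. All 10 were among the 20662 genes of the deposited table and among the 17155 kept by a filter on low counts.

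The study injured the hind limb muscle of young male Sprague-Dawley rats with a mechanical blow and took the tissue for RNA sequencing at 7 times from 4 h to 48 h, beside muscle of uninjured rats as the control. The labels name no genetic change and no drug treatment for any group. The paper, however, describes chloral hydrate anesthesia and hair removal before the blow for the injured rats, while the controls were killed directly. Each comparison with the control therefore spans these steps as well as the blow, and their part was not tested. The table held 60 libraries, of which 7 were from 4 h, 8 from 8 h, 8 from 12 h, 8 from 16 h, 7 from 20 h, 8 from 24 h, 8 from 48 h and 6 from the control. The study describes 1 rat per sample, although the sample labels do not say so, and where that does not hold the p-values measure technical spread.

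The groups rest on the position of each column of counts and not on its heading. A supplementary table gives normalized values per animal, and it served as a key to the columns. Over 1288 genes, each of 49 libraries in it matched exactly 1 column, at 99.7% or more of the genes, and the next best column matched at most 3.89%. All 49 lay in the position range of their group and 0 under their own heading. The other 11 columns were placed by position alone, and 6 of them were among the 8 libraries of 48 h. Under the headings, the 6 columns named as uninjured held 84.1 to 509 CPM of Ptx3 (counts scaled to a library of standard size, with the normalization factors applied), against 2.60 to 4.35 CPM in the 6 columns used here as the control. For Has2 these columns overlapped, at 1.22 to 6.64 against 1.56 to 4.20 CPM. Such values describe the columns, and the groups do not rest on them.

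Column totals ran from 16372673 to 34931323 counts, and each of the 8 groups had 3 libraries under 25000000. Each of the 8 tested muscle fiber markers was detected in all 60 libraries, with Acta1 at 12452 CPM or more. An extraction note in the labels speaks of retina, but the photoreceptor gene Rbp3 was at 0 in all 60 libraries. Library 6 of 12 h stood apart, since it was the lowest of its group in 8 of the 10 genes. Library 8 of 12 h was the highest in 8 of them, and library 4 of 20 h the lowest in 7. All of these, with library 1 of 4 h and library 6 of 8 h, had their group from position alone. The paper removed samples it called abnormal before its own analysis, while all 60 libraries were tested here. Outside 48 h, each group of the paper then held as many samples as it has matched columns here. The unmatched libraries just named may therefore be those the paper left out, although it does not identify them. Libraries 1 of 4 h, 6 of 8 h, and 4 and 5 of 12 h carried B cell and lymph node markers at a mean log2 level of 5.40 to 6.86, against 0.08 to 2.54 in the controls and at most 4.28 in the other injured libraries. Calls for the 10 genes that change without library 6 of 12 h, or without the 4 libraries high in these markers, are named where they stand. The ratio tests were not rerun for these sets of libraries alone.

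Hyaluronan is a long sugar chain spun out at the cell surface by the HAS enzymes from UDP-sugars. The secreted protein TSG-6, made from Tnfaip6, transfers heavy chains of inter-alpha-inhibitor onto it, pentraxin 3 ties such chains together, versican binds along the strand, and CD44 anchors it to cells. ADAMTS1, 4, 5 and 9 cut versican and related proteoglycans, so the same tissue can build and remodel this gel. In bulk tissue, a change in the number of cells of a type and a change in RNA per cell cannot be told apart.

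RefSeq promoters (assembly GRCr8) were found for 8 of the 10 genes, and the 250 bases before the start of 4 that rose early are shown because each held a match to 1 of 6 motifs searched on both strands. Capitals mark the match. The windows are chr1:67378445-67378694 on the minus strand for Has1, chr3:56911148-56911397 on the plus strand for Tnfaip6, chr2:152797313-152797562 on the plus strand for Ptx3, and chr13:86202761-86203010 on the plus strand for Adamts4.
Has1: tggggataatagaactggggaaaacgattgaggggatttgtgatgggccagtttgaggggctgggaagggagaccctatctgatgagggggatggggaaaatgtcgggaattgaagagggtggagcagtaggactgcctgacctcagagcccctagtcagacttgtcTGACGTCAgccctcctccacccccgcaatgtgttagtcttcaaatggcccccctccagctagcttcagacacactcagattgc
Tnfaip6: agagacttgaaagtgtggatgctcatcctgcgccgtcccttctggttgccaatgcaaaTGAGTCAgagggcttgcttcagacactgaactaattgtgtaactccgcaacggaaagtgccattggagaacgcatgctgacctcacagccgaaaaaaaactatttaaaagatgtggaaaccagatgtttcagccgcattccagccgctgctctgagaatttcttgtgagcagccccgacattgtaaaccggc
Ptx3: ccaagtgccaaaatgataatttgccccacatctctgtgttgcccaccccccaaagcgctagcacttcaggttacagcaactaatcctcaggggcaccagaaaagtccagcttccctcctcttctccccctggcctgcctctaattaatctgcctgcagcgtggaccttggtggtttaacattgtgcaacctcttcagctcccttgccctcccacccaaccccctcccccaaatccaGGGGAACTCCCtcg
Adamts4: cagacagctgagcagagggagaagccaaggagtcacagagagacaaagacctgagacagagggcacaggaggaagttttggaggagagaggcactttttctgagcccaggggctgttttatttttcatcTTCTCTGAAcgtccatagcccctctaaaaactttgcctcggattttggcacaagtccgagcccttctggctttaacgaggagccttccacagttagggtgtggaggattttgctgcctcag
The Has1 window held the cyclic AMP response element TGACGTCA, which 1.59% of 33469 promoter windows of the same length hold. The Tnfaip6 window held the AP-1 motif TGANTCA, present in 6.34% of windows. The Ptx3 window held the NF-kB motif, in overlapping matches close to the start, present in 3.54% of windows. The Adamts4 window held the STAT motif TTCNNNGAA, present in 7.67% of windows. The windows of Vcan, Cd44, Adamts1 and Adamts9 held no match to these 4 motifs, to the CArG box or to the hypoxia motif ACGTG. A match describes the letters of the window and is not evidence that a factor binds there.

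**Figure D1:**
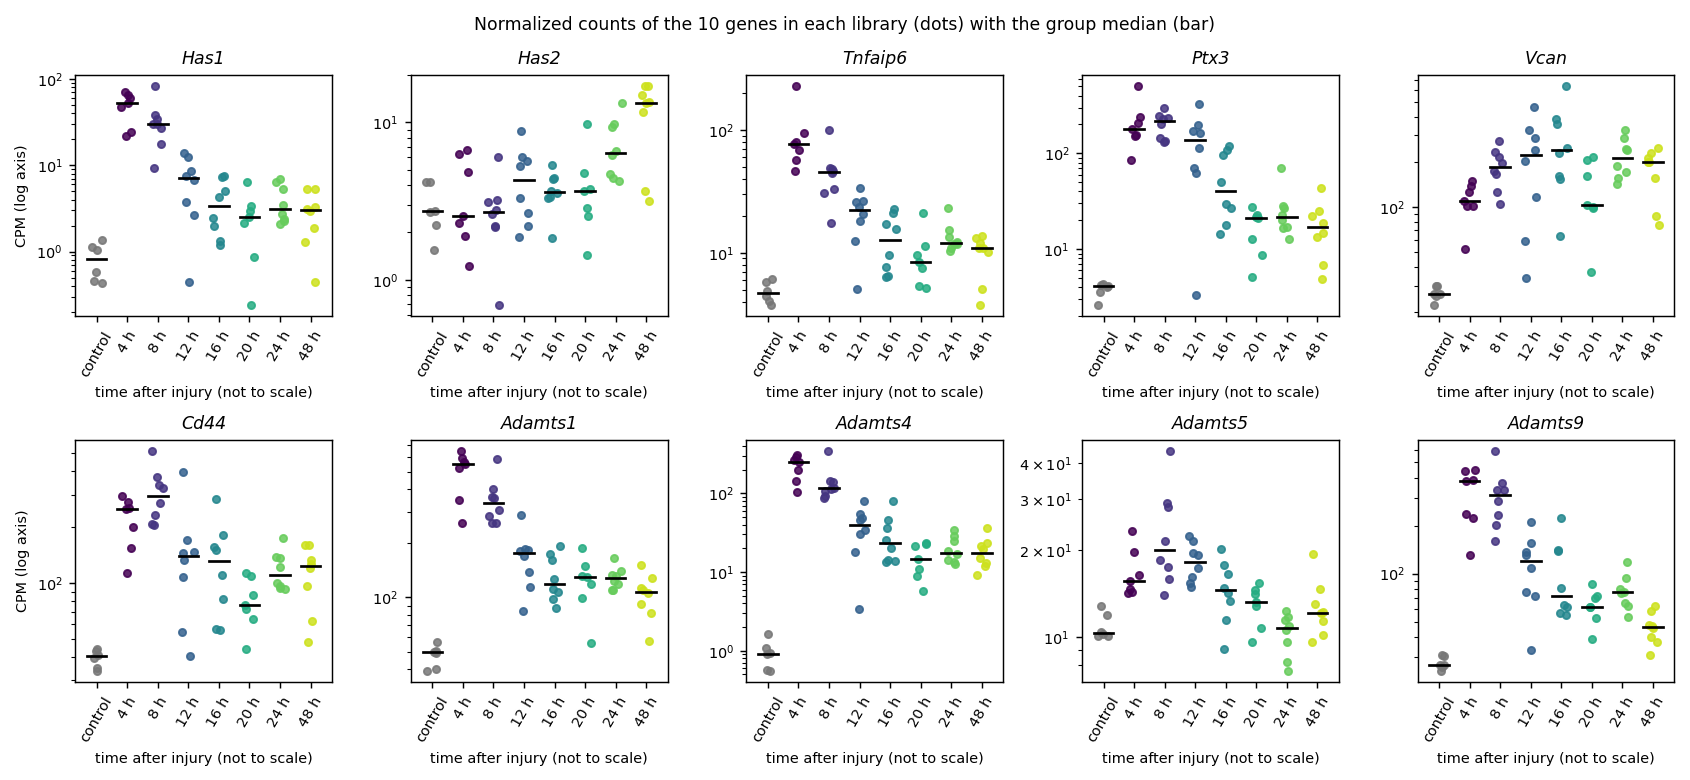
Normalized counts (CPM, log axis) of each gene in every library, with dots for the 60 libraries and bars for group medians over 8 evenly spaced groups. Has1, Tnfaip6, Adamts1, Adamts4 and Adamts9 had their highest medians at 4 h, Ptx3, Cd44 and Adamts5 at 8 h, Vcan at 16 h and Has2 at 48 h.

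The first question was when each gene departed from uninjured muscle. A gene was called when the Benjamini-Hochberg adjusted p over all 17155 genes in edgeR's quasi-likelihood test was under 0.05 and the log2 fold change was beyond 1 in either direction. At 4 h, 8 of the 10 genes were called higher and 0 lower, where 11.4% of all tested genes were called higher and 8.35% lower. The 8 h count was 9 higher, with 12.2% of all genes higher and 11.9% lower. At 12 h it was 8, with 8.42% of all genes higher and 4.16% lower, and at 16 h again 8, with 7.39% and 6.23%. The 20 h count was 7, with 4.53% of all genes higher and 1.82% lower. At 24 h it was 9, with 8.81% and 8.63%, and at 48 h it was 8, with 10.8% and 6.81%. None of the 10 was called lower at any of the 7 times (0 in edgeR), 0 were lower at an unadjusted p under 0.05, and DESeq2 also called 0 lower. The median log2 fold change of the 10 genes went from 3.46 at 4 h and 3.11 at 8 h to 1.29 at 20 h and 1.71 at 48 h, while the median over all genes stayed between -0.03 and 0.04. The 7 comparisons share their 6 controls, so they are not independent of each other.

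Has1, one of the hyaluronan synthases, was almost silent in uninjured muscle and rose early. It was measured at 0.432 to 1.35 CPM in the 6 controls, with a median of 0.817. At 4 h the 7 libraries ran from 21.7 to 70.6 CPM (median 53.2), and at 8 h the 8 libraries ran from 9.17 to 84.0 with a median of 29.8. Every library of both times lay above every control. The log2 fold change was 5.96 ± 0.67 (SE) at 4 h, which is 62.1-fold (adjusted p = 1.95e-10), and 5.42 ± 0.66 at 8 h (adjusted p = 9.46e-10). At 12 h the median was 7.15 CPM, and the range of 0.441 to 13.8 reached into the controls through library 6. From 16 to 48 h the medians lay between 2.50 and 3.36 CPM, and the 4 log2 fold changes, between 1.75 and 2.33, were each called. Above every control lay 6 of 8 libraries at 16 h, 5 of 7 at 20 h, 8 of 8 at 24 h and 6 of 8 at 48 h. At 20 h 1 library lay below every control. The fall from 8 to 12 h was called as well (-2.26 ± 0.47, adjusted p = 0.000348).

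Has2, the synthase with low but steady transcript in the control, moved on another schedule. The controls ran from 1.56 to 4.20 CPM (median 2.73), the 4 h libraries from 1.22 to 6.64 with a median of 2.53, and the 8 h libraries from 0.688 to 5.998 with a median of 2.69. These ranges overlapped, and the log2 fold changes of 0.32 ± 0.41 at 4 h and -0.04 ± 0.40 at 8 h did not pass the test, with 95% intervals of -0.49 to 1.13 and -0.82 to 0.75. At 24 h all 8 libraries exceeded every control, from 4.24 to 13.2 CPM (median 6.38). The rise was 1.32 ± 0.41 on the log2 scale (adjusted p = 0.00684). At 48 h the range was 3.19 to 17.2 CPM (median 13.4), and the log2 fold change was 2.01 ± 0.42 (adjusted p = 8.63e-05). In 6 of the 8 libraries of 48 h Has2 lay above every control, and the remaining pair, libraries 2 and 6, were at 3.19 and 3.66 CPM.

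The difference between the synthases was tested on their ratio within each library, where the scaling of the library enters through the pseudocount alone. The log2 ratio of Has1 to Has2 (CPM + 0.5 for each) was -1.36 ± 0.52 (SD, n = 6) in the controls, 3.63 ± 0.98 at 4 h (n = 7) and 3.25 ± 0.95 at 8 h (n = 8). It was therefore 4.99 above control at 4 h and 4.61 at 8 h, with all 7 and all 8 libraries above every control. Two-sided exact permutation tests gave p = 0.00188 and p = 0.00155 after Benjamini-Hochberg adjustment over the 21 ratio tests. The ratio was 1.72 above control at 12 h and 1.22 above it at 16 h (exact permutation tests, adjusted p = 0.00962 and 0.0132). At 20, 24 and 48 h the differences of 0.69, 0.53 and -0.48 did not pass the exact test (adjusted p = 0.152, 0.120 and 0.207), although with a pseudocount of 2 CPM the 48 h value was -0.64 (adjusted p = 0.0346).

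**Figure D2:**
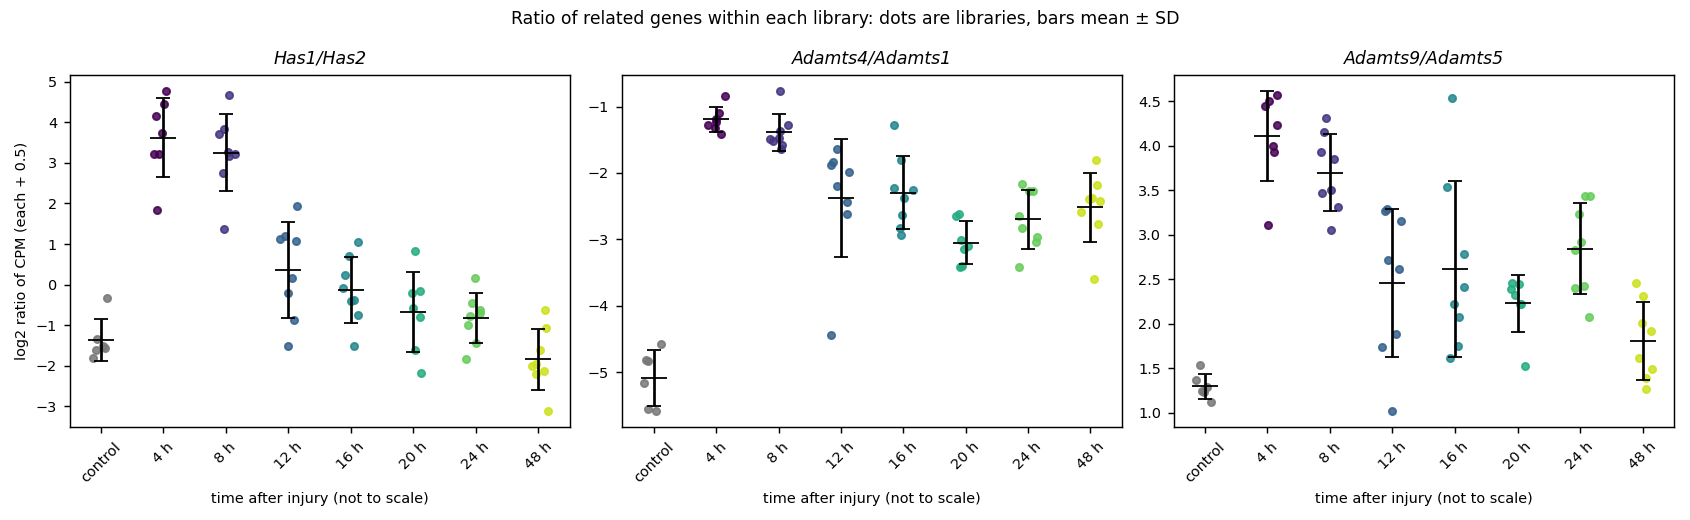
Log2 ratio of CPM (each + 0.5) for 3 pairs of related genes, with dots for libraries and bars for mean ± SD over 8 evenly spaced groups. The mean Has1 to Has2 ratio went from -1.36 in the control to 3.63 at 4 h and -1.84 at 48 h, while the Adamts4 to Adamts1 ratio was above every control in all libraries of all 7 times.

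Tnfaip6 encodes TSG-6, the protein that cross-links hyaluronan through heavy chain transfer. It was at 3.75 to 6.08 CPM in the controls with a median of 4.67, at 46.1 to 231 at 4 h with a median of 77.5, and at 17.5 to 101 at 8 h with a median of 45.5. Every library of these times was above every control. The log2 fold change was 4.27 ± 0.42 at 4 h (19.2-fold, adjusted p = 5.24e-12) and 3.25 ± 0.40 at 8 h (adjusted p = 1.49e-09). The medians then went to 22.3, 12.7 and 8.47 CPM at 12, 16 and 20 h. At 20 h the log2 fold change of 1.02 ± 0.38 missed the threshold (edgeR adjusted p = 0.0507), and it passed under 6 of the 9 alternatives run, where the adjusted p ranged from 0.0138 to 0.0551. It passed without the 4 libraries high in lymph node markers (edgeR adjusted p = 0.0449). Leaving out library 6 of 12 h, it passed as well (edgeR adjusted p = 0.0422). At 24 and 48 h Tnfaip6 was called again, at 1.49 ± 0.38 and 1.04 ± 0.37. All 8 libraries of 24 h lay above every control, but at 48 h 6 of 8 did and 1 lay below every control. Between times it was lower at 8 h than at 4 h (-1.01 ± 0.33, adjusted p = 0.0256). Without the 4 libraries high in lymph node markers that difference was -0.94 and not called (edgeR adjusted p = 0.0557).

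Ptx3, which encodes pentraxin 3, a soluble pattern recognition protein, was still near its highest level at 12 h. The controls ran from 2.60 to 4.35 CPM (median 4.08). The 4 h libraries ran from 84.1 to 509 CPM (median 177), the 8 h libraries from 131 to 299 with a median of 215, and the 12 h libraries from 3.34 to 328 with a median of 138. Library 6 of 12 h, at 3.34 CPM, was the single one of these 23 inside the control range, and the next lowest of its group was at 62.5. The log2 fold changes were 5.83 ± 0.65, 5.72 ± 0.64 and 5.18 ± 0.63 at 4, 8 and 12 h (adjusted p = 1.40e-10, 1.43e-10 and 1.46e-08). Later medians were 40.1, 21.2, 21.4 and 16.8 CPM in time order from 16 h, and the lowest library of 48 h, at 4.94 CPM, still exceeded the highest control. Of the 10 genes Ptx3 was the only one called between 16 and 20 h, where it fell by 1.76 ± 0.49 on the log2 scale (adjusted p = 0.0431), and 0.251% of all genes were called lower and 0.857% higher in that step. Scaled by column totals the Ptx3 step was -1.89 and just missed the threshold (edgeR adjusted p = 0.0510).

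Versican, the large chondroitin sulfate proteoglycan that binds hyaluronan, had its highest median at 16 h, later than the other genes apart from Has2. Vcan was at 22.2 to 30.004 CPM in the controls with a median of 26.4. After injury it was at 52.9 to 150 at 4 h with a median of 110, at 105 to 276 at 8 h with a median of 185, and at 33.98 to 463 at 12 h with a median of 221. Every injured library lay above every control at all 7 times, and library 6 of 12 h, at 33.98 CPM, was the lowest of all the injured ones. At 16 h the median was 239 CPM with a range of 63.9 to 645, at 20 h it was 103 with a range of 37.2 to 217, and at 24 and 48 h it was 214 and 201. On the log2 scale the change was 2.06 ± 0.41 at 4 h (adjusted p = 4.19e-05), 3.39 ± 0.43 at 16 h (10.5-fold, adjusted p = 2.72e-08) and 2.72 ± 0.42 at 48 h (adjusted p = 4.79e-07). No step between successive times was called for Vcan with edgeR, and DESeq2 called it lower at 20 h than at 16 h (-1.09, adjusted p = 0.0486, against -1.09 and 0.107 in edgeR).

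Cd44, the hyaluronan receptor carried by leukocytes and by activated mesenchymal cells, rose from a moderate level. The controls held 33.7 to 44.1 CPM (median 40.4), the 4 h libraries 114 to 295 with a median of 252, and the 8 h libraries 206 to 516 with a median of 296. All libraries of these times exceeded every control. The log2 fold change was 2.48 ± 0.36 at 4 h and 2.97 ± 0.36 at 8 h (adjusted p = 7.82e-08 and 9.46e-10). Medians from 12 h on were 140, 131, 76.4, 111 and 123 CPM in time order, and Cd44 was called higher at all 7 times. It was lower at 12 h than at 8 h (-1.04 ± 0.30, adjusted p = 0.00834), a step that was -0.90 and under the fold limit without library 6 of 12 h.

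Of the proteases, Adamts4, also known as aggrecanase-1, changed by the largest factor of the 10 genes. It was at 0.560 to 1.61 CPM in the controls with a median of 0.922, at 103 to 307 at 4 h with a median of 253, and at 86.0 to 347 at 8 h with a median of 116. The lowest 4 h library was far above the highest control. The log2 fold change was 7.80 ± 0.59 at 4 h, which is 223-fold (adjusted p = 1.20e-15), and 7.17 ± 0.58 at 8 h (adjusted p = 1.41e-14). The 12 h libraries ran from 3.38 to 80.1 CPM (median 40.1), and lay below all 8 h libraries. Later medians were 23.1, 14.7, 17.7 and 17.4 CPM at 16, 20, 24 and 48 h, with log2 fold changes of 4.97, 3.95, 4.37 and 4.24, and at all 7 times every injured library was above every control.

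Adamts1, a secreted protease that also cuts versican, started from a higher level of its own. The controls ran from 39.3 to 56.3 CPM (median 49.8), the 4 h libraries from 258 to 652 with a median of 548, and the 8 h libraries from 258 to 587 with a median of 332. Adamts1 rose by 3.38 ± 0.25 on the log2 scale at 4 h (10.4-fold, adjusted p = 5.05e-16) and by 2.88 ± 0.24 at 8 h (adjusted p = 5.68e-14). Medians from 12 to 48 h were 176, 119, 130, 128 and 108 CPM, each called higher, with a log2 fold change of 1.14 ± 0.23 at 48 h. Every library was above every control apart from 1 of 7 at 20 h.

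Adamts9, which belongs to the same family and cuts versican and aggrecan, was at 24.6 to 30.9 CPM in the controls with a median of 26.7. It reached 131 to 447 CPM at 4 h with a median of 381, and 161 to 589 at 8 h with a median of 310. All libraries of these times were above every control. Its log2 fold change was 3.54 ± 0.34 at 4 h (adjusted p = 1.53e-12), 3.51 ± 0.33 at 8 h (adjusted p = 1.55e-12) and 2.07 ± 0.31 at 12 h. At 48 h the median was 46.4 CPM, and the change of 0.74 ± 0.30 had an adjusted p of 0.0393 in edgeR but stayed under the fold limit.

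Adamts5, also known as aggrecanase-2, had the smallest log2 fold change of the 4 proteases at all 7 times. It was at 10.1 to 12.8 CPM in the controls with a median of 10.3, at 14.2 to 23.3 at 4 h with a median of 15.6, and at 14.01 to 44.1 at 8 h with a median of 20.0. Every library of 4, 8 and 12 h was above every control, although the shift was small. The log2 fold change was 0.63 ± 0.18 at 4 h (adjusted p = 0.00399, under the fold limit), 1.11 ± 0.18 at 8 h (adjusted p = 8.65e-07, called) and 0.74 ± 0.18 at 12 h (adjusted p = 0.00110, under the fold limit). At 24 h the median was 10.8 CPM and the change was -0.09 ± 0.18, with a 95% interval of -0.43 to 0.26. In the GRCr8 annotation Adamts5 is the direct neighbour of Adamts1.

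Ratios within libraries separated the proteases. The log2 ratio of Adamts4 to Adamts1 was -5.09 ± 0.42 (SD, n = 6) in the controls and -1.19 ± 0.19 at 4 h (n = 7), a difference of 3.90 (exact permutation test, adjusted p = 0.00188). It was 2.04 to 3.70 above control at the other times, with every injured library above every control at all 7 times. The ratio of Adamts9 to Adamts5 was 1.30 ± 0.14 in the controls and 4.11 ± 0.51 at 4 h, a difference of 2.81 (exact permutation test, adjusted p = 0.00188). It was still 0.51 above control at 48 h, with 5 of 8 libraries above every control (exact permutation test, adjusted p = 0.0132). With matched columns alone 48 h had 2 libraries, too few for the exact test to pass at any size of difference. The 48 h differences were then 2.51 for the first ratio (exact permutation test, adjusted p = 0.0833) and 0.25 for the second, and no conclusion is drawn from that test.

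**Figure D3:**
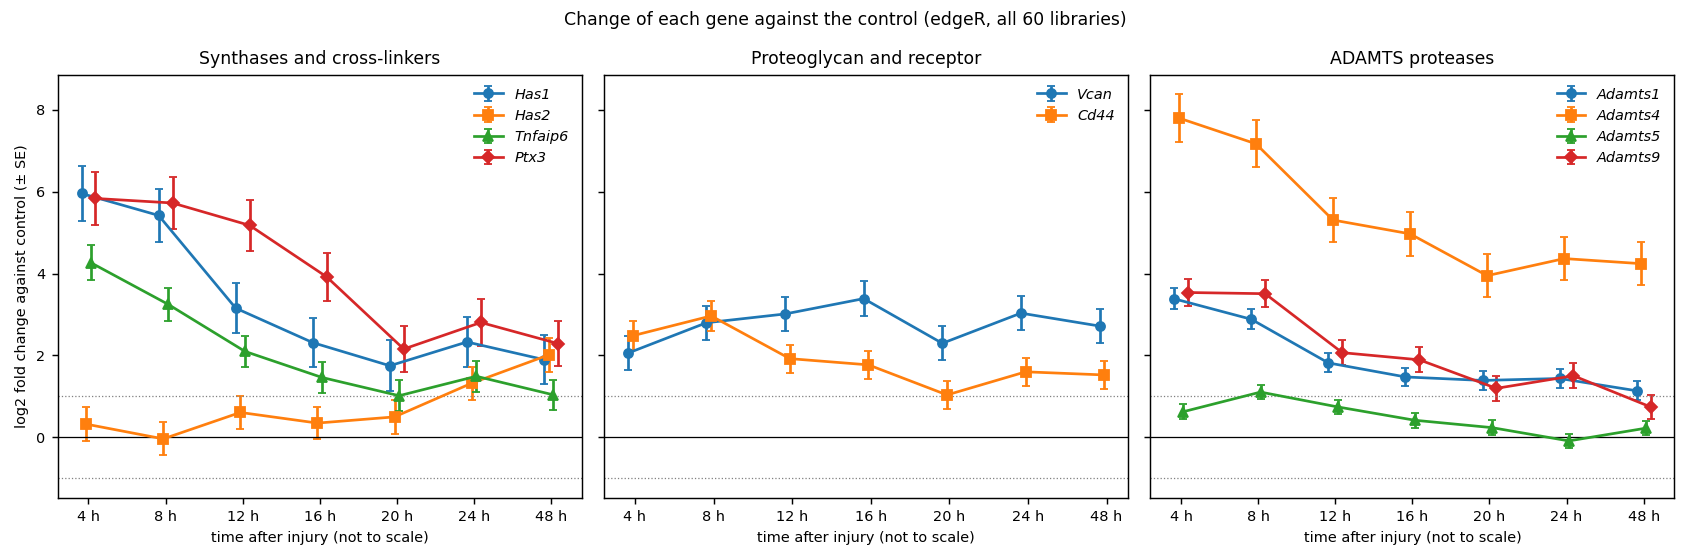
Log2 fold change against the control (± SE, edgeR, 60 libraries) at 7 evenly spaced times, with dotted lines at the fold limit of 1 in each direction. Adamts4 was highest at 7.80 at 4 h, Has2 climbed to 2.01 at 48 h, Vcan stayed between 2.06 and 3.39, and Adamts5 passed the limit at 8 h alone with 1.11.

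The steps between successive times use no control library. Between 4 and 8 h 1 of the 10 genes was called lower and 0 higher, against 2.51% and 1.56% of all genes. Between 8 and 12 h 6 were called lower and 0 higher, against 2.89% and 3.57% of all genes, and the 6 were Has1, Tnfaip6, Cd44, Adamts1, Adamts4 and Adamts9. The largest of these falls were those of Has1 and of Adamts4 (-1.86 ± 0.38, adjusted p = 0.000250). Without library 6 of 12 h the count was 4, since Cd44 and Adamts1 no longer passed the fold limit, and scaled by column totals it was 3. From 16 to 20 h Ptx3 alone was called lower and 0 were higher, against 0.251% and 0.857% of all genes. In that step 5 of the 10 had an unadjusted p under 0.05 in edgeR, all of them lower. The median log2 fold change of the 10 was -0.63 from 16 to 20 h and 0.52 from 20 to 24 h. In the steps from 12 to 16 h, 20 to 24 h and 24 to 48 h edgeR and DESeq2 each called 0 of the 10. There 2, 2 and 1 genes had an unadjusted p under 0.05 in edgeR. Of all genes, 0.0117% were called higher and 0.513% lower in the first of these steps, 0.286% and 1.48% in the second, and 1.77% and 0.35% in the third. The step from 20 to 24 h was 0.82 ± 0.38 for Has2 and the one from 24 to 48 h was 0.69 ± 0.36, so the rise of Has2 against control at 24 and 48 h was not resolved into single steps. The 7 injured groups differed in all 10 genes by the joint test (edgeR adjusted p of 0.0197 for Vcan and 6.21e-06 or less for the others), as they did in 67.1% of all genes.

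Every injured library lay above every control in 9, 9, 5, 7, 5, 9 and 5 of the 10 genes, taking the times in order. Among all tested genes the shares were 12.9%, 14.5%, 4.86%, 11.5%, 5.86%, 15.1% and 10.7%. At 12 h library 6 was the one at issue, since without it 9 of the 10 genes lay apart from the control, against 9.42% of all genes. Library 4 of 20 h was lowest of its group in 7 genes and library 2 of 4 h in 8.

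Marker genes of infiltrating cells also changed after injury, with the highest median at 8 h for the neutrophil list and at 48 h for the macrophage and monocyte list. The mean log2 level of 10 neutrophil markers was -0.33 to 0.44 in the controls, 3.97 to 5.56 at 4 h, 4.78 to 6.77 at 8 h and 1.57 to 3.02 at 48 h. Library 6 of 12 h, lowest in 8 of the 10 genes, had a neutrophil level of 0.82, and library 7 of 8 h, highest in 8 of them, had 6.77. The macrophage and monocyte list went from 3.25 to 3.87 in the controls to 5.40 to 6.56 at 48 h, when Has2 was highest. The fibroblast list was 7.25 to 7.75 in the controls and 5.89 to 7.15 at 8 h, with medians of 7.61 at 20 h and 7.69 at 48 h. Its genes did not move together. The median unscaled count of Col3a1 was 57974.5 in the controls and 10455.5 at 8 h, while that of Pdgfra was 789 and 1636.5. The muscle fiber list had medians of 13.98 in the controls and 12.3 at 48 h. The part of these cell mixtures in the changes of the 10 genes was not tested.

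**Figure D4:**
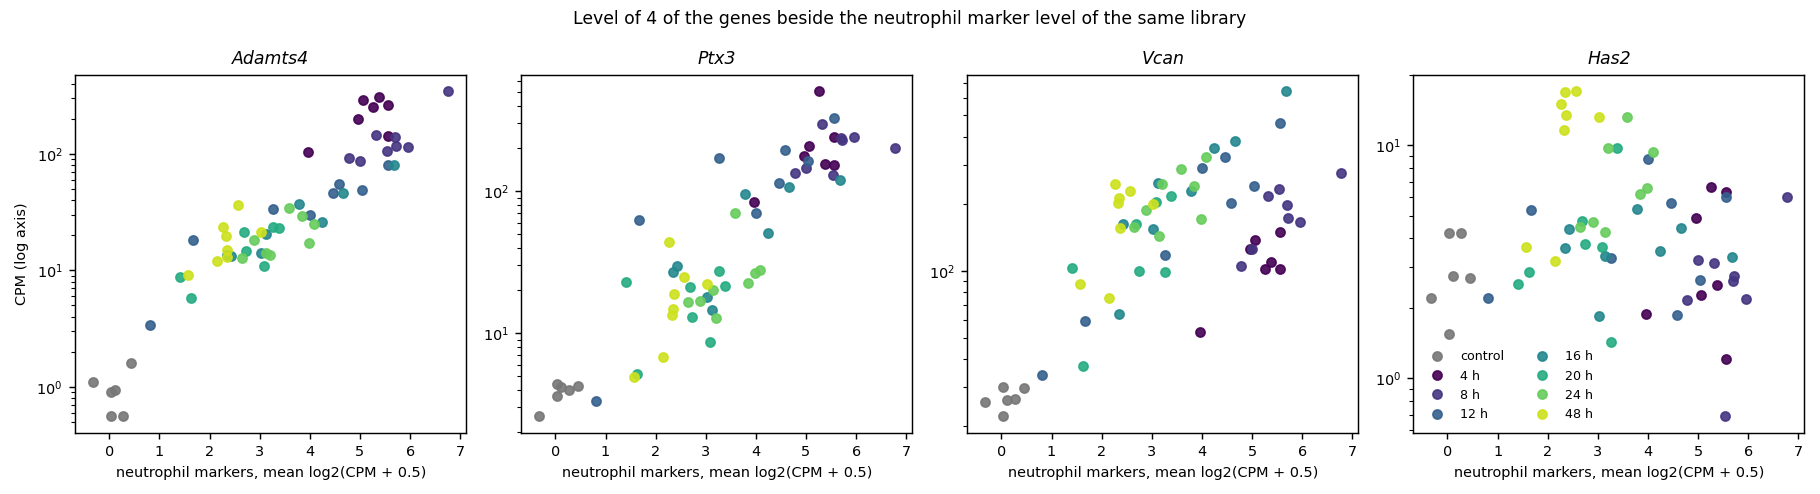
CPM (log axis) of Adamts4, Ptx3, Vcan and Has2 against the mean log2(CPM + 0.5) of 10 neutrophil markers in the same library, 1 dot per library and colours for the 8 groups. Library 6 of 12 h lies next to the controls at a marker level of 0.82 with 3.38 CPM of Adamts4, and the highest Has2 values, up to 17.2 CPM, belong to 48 h libraries at marker levels of 3.02 or less.

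Across the 60 libraries Has1, Tnfaip6, Ptx3, Cd44, Adamts1, Adamts4 and Adamts9 ranked alike, with Spearman correlations of 0.83 to 0.95 for each pair. Has2 stood apart, at -0.31 to 0.44 with the other 9 genes, and Vcan reached at most 0.63, with Cd44. These values describe libraries that share groups and carry no p. Among 13466 genes with a mean of 10 counts or more, the nearest to Has1 were Tnfaip6, Il6 and Nfkbiz (correlations of 0.95, 0.94 and 0.94), and those nearest to Tnfaip6 were Il6, Tfpi2 and Has1. Il6 encodes an inflammatory cytokine and Nfkbiz an inducible NF-kB cofactor. Nearest to Ptx3 were Sbno2, Bcl3 and Socs3, the last a feedback inhibitor of cytokine signalling. Nearest to Adamts1 were Myc, Csrnp1 and Adamts9, to Adamts4 Slc7a5, Sbno2 and Il6, and to Adamts9 Sbno2, Ptpn12 and Cxcl3. Nearest to Cd44 were B4galt5, Exo5 and Trem3 (correlations of 0.96 to 0.97). Nearest to Vcan were Sdc1, Enpp3 and Arg1 (0.87 to 0.90), where Sdc1 encodes a cell surface proteoglycan and Arg1 arginase. Has2 had weaker neighbours, Mcm4, Lima1 and Rbbp8 (0.72 to 0.75), of which Mcm4 encodes a subunit of the replicative helicase. Adamts5 had Unkl, Snx9 and Hs6st1 (0.74 to 0.78).

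The genes that make and break hyaluronan changed beside the synthases. Of 10 tested genes of hyaluronan synthesis and breakdown, 7 were called higher and 1 lower at 4 h, 6 and 1 at 8 h, 5 and 1 at 12 h, and 1 to 3 higher and 1 lower from 16 to 48 h. Of all genes 11.4%, 12.2% and 8.42% were higher at 4, 8 and 12 h, and 4.53% to 10.8% from 16 to 48 h. The 1 lower of 10 stood beside 1.82% to 11.9% of all genes. Ugdh, which makes the UDP-glucuronic acid used by the synthases, was at 13.1 to 15.6 CPM in the controls and 68.2 to 206 at 4 h (3.40 ± 0.30 on the log2 scale, adjusted p = 1.42e-13), and it was called at all 7 times. Gfpt2, which feeds the hexosamine pathway to the other UDP-sugar, went from 12.99 to 17.4 CPM to 70.0 to 186 at 4 h (3.32 ± 0.26, adjusted p = 3.07e-15) and was called up to 12 h. The lower gene was the third synthase at all 7 times. Has3 was at 5.03 to 8.70 CPM in the controls and 0.429 to 0.882 at 4 h (-3.22 ± 0.33, adjusted p = 1.29e-11), and was still -1.34 ± 0.29 at 48 h, a call that was lost when libraries were scaled by column totals.

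**Figure D5:**
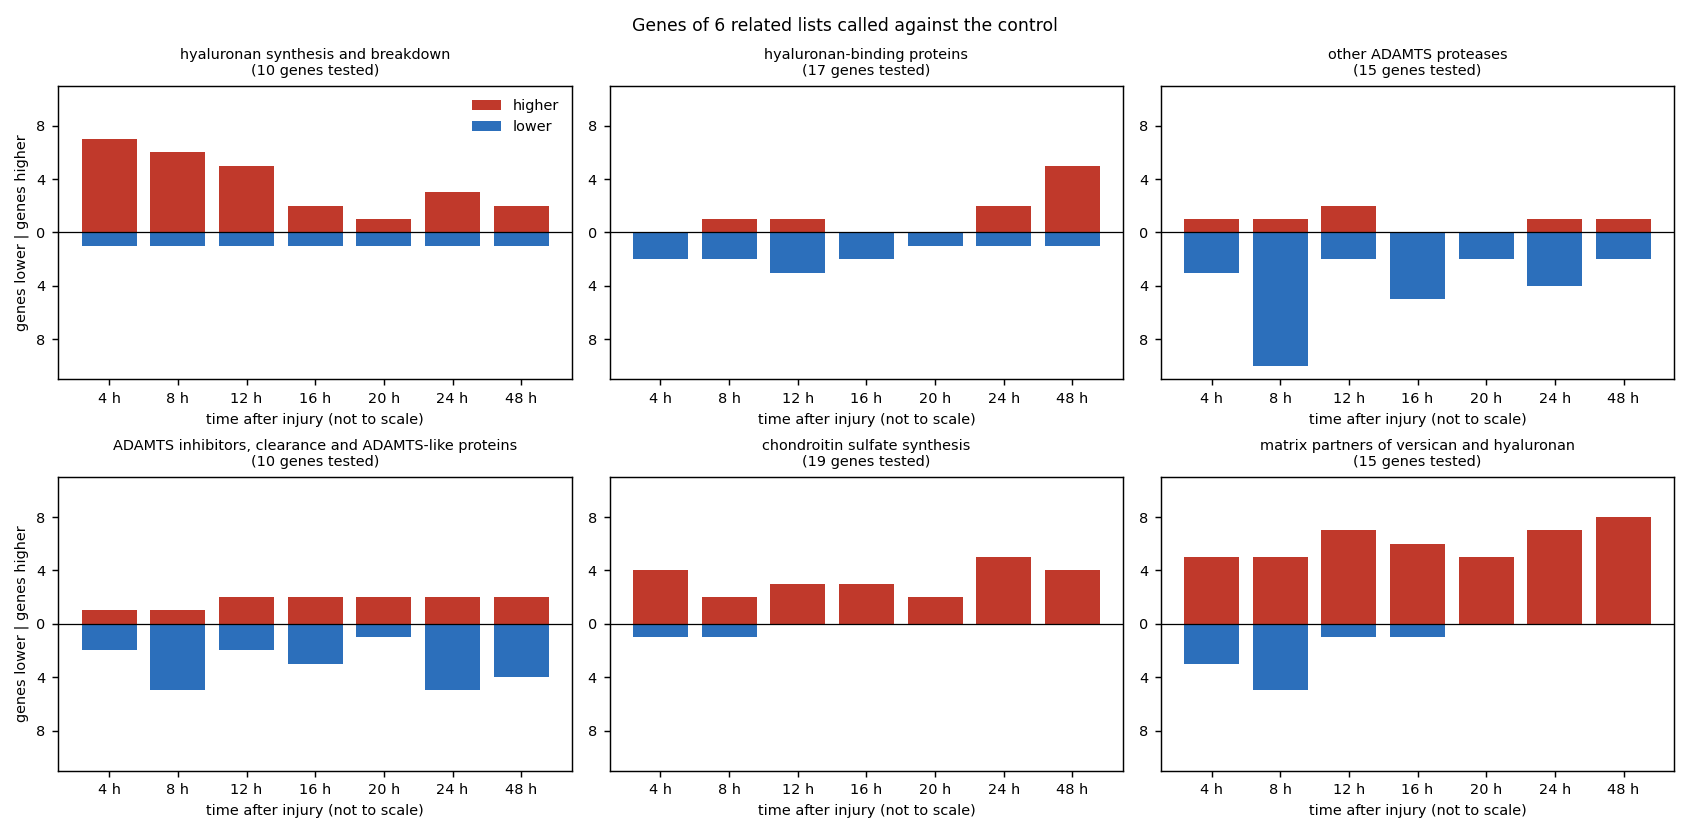
Number of genes called higher (red, upward) and lower (blue, downward) against the control at 7 evenly spaced times in 6 lists of related genes. Hyaluronan synthesis and breakdown had 7 of 10 genes higher at 4 h (11.4% of all genes), and the other ADAMTS proteases had 10 of 15 lower at 8 h (11.9% of all genes).

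Most of the other ADAMTS genes that passed the test were lower after injury, led by the 8 h comparison. Of 15 other ADAMTS genes tested, 1 was called higher and 10 lower at 8 h, with a median log2 fold change of -1.47, and 0 to 2 were called higher and 2 to 5 lower at the other times. Of all genes 12.2% were higher and 11.9% lower at 8 h. At the other times 4.53% to 11.4% of all genes were higher and 1.82% to 8.63% lower. Scaled by column totals the 8 h count of the 15 was 1 higher and 8 lower, and at 48 h it turned to 4 higher and 1 lower, against 1 and 2. Adamts8 was at 15.2 to 29.1 CPM in the controls and 1.12 to 4.72 at 16 h (-3.49 ± 0.50, adjusted p = 3.00e-07), and was called lower at all 7 times. Adamts20 was at 24.3 to 43.5 CPM in the controls and 2.42 to 11.8 at 8 h (-2.67 ± 0.34, adjusted p = 3.07e-09). Adamts18 was called lower at 8 h as well, at levels of 0.274 CPM or less in the controls.

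Among 10 inhibitors, clearance receptors and ADAMTS-like proteins 1 or 2 were called higher and 1 to 5 lower at each time. At 4 and 8 h the 1 higher of 10 was near the 11.4% and 12.2% of all genes, and from 12 to 48 h 2 were higher against 4.53% to 10.8%. At 8 and 24 h 5 were lower, against 11.9% and 8.63% of all genes. At the other times 1 to 4 were lower, against 1.82% to 8.35%. Timp1, a metalloproteinase inhibitor, was at 8.63 to 11.3 CPM in the controls and 171 to 658 at 8 h (5.25 ± 0.51, adjusted p = 3.46e-12), and was called at all 7 times. Timp4, of the same family, was at 57.1 to 88.8 CPM in the controls and 5.81 to 24.3 at 4 h (-2.45 ± 0.36, adjusted p = 1.85e-07). Papln, which encodes the ADAMTS-like protein papilin, was at 6.37 to 17.5 CPM in the controls and 0.164 to 0.855 at 8 h (-4.25 ± 0.51, adjusted p = 7.68e-10).

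Of 17 hyaluronan-binding proteins 0 to 2 were called higher from 4 to 24 h and 5 at 48 h, namely Acan, Hapln4, Hmmr, Lyve1 and Stab1. Of all genes, 4.53% to 12.2% were called higher from 4 to 24 h and 10.8% at 48 h, so the earlier counts were near or under that share. Lower calls took 1.82% to 11.9% of all genes over the 7 times. The list also had 1 to 3 genes called lower at each time, which was at least as many as were called higher at each time from 4 to 20 h, and Hmmr itself was called lower at 4, 8 and 16 h. Hmmr encodes a hyaluronan-mediated motility receptor, Lyve1 a lymphatic and macrophage receptor, and Stab1 a scavenger receptor. Acan was at 0 to 0.979 CPM in the controls and 0 to 10.02 at 48 h (2.93 ± 1.08, adjusted p = 0.0247), with ranges that overlapped, and it was not called with matched columns alone (edgeR adjusted p = 0.204). Hapln4 had 0 counts in all 6 controls and 15 over the 8 libraries of 48 h, so no fold is given. Hapln1, a link protein, did not exceed 0.943 CPM in any control and was called lower at 16 h (-2.80 ± 0.77, adjusted p = 0.00308). The median log2 fold change of the list was -0.80 at 16 h and 0.48 at 48 h with Hapln4 left out.

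In the list of 19 genes for chondroitin sulfate, the chain that versican carries, 2 to 5 were called higher at each time and 1 lower at 4 and 8 h. These counts were near the share of all genes at 8 h, when 2 of the 19 were higher against 12.2% of all genes and 1 lower against 11.9%, and the median log2 fold change of the list was 0.23 to 0.55. At the other times 4.53% to 11.4% of all genes were higher, and at 4 h 8.35% were lower. Chst11, a sulfotransferase, was at 0.750 to 1.961 CPM in the controls and 4.07 to 11.1 at 8 h (2.55 ± 0.35, adjusted p = 1.41e-08). Chst7, another sulfotransferase, was at 5.87 to 9.19 CPM in the controls and 0.952 to 2.08 at 4 h (-2.22 ± 0.23, adjusted p = 2.10e-11). Chst13 was called higher at 24 and 48 h at levels of 1.27 CPM or less. Scaled by column totals, 11 of the 19 were higher at 48 h, against 4.

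Of 15 matrix partners of versican and hyaluronan 5 were called higher at 4 h and 8 at 48 h, while the called lower went from 5 at 8 h to 0 from 20 h on. Of all genes 11.4% were higher at 4 h and 10.8% at 48 h. The lower share of all genes was 11.9% at 8 h and 1.82% to 8.63% from 20 h on. Thbs1, which encodes the matricellular protein thrombospondin 1, was at 6.08 to 11.04 CPM in the controls and 195 to 947 at 4 h (6.27 ± 0.68, adjusted p = 7.38e-11). Selp, the P-selectin of endothelium and platelets, was at 3.14 to 5.18 CPM in the controls and 78.1 to 213 at 4 h (5.09 ± 0.48, adjusted p = 1.26e-12). Sdc4, a cell surface proteoglycan, was at 21.4 to 29.1 CPM in the controls and 187 to 469 at 4 h (3.76 ± 0.38, adjusted p = 7.24e-12). All 3 were called higher at all 7 times.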

How the data were processed

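Total RNA of 60 muscle samples had been sequenced as paired reads. Trimmomatic, HISAT2 2.1.0 and HTSeq 0.6.1 are the tools named by the submitters for trimming, for alignment to rn6 and for counting. The authors deposited raw counts per gene, not normalized, and 0 columns of the table were unused here. The count columns were grouped by position, checked against the study's table of normalized values, from which no value is reported.

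Counts with a total of 5 or more were normalized by TMM and fitted in edgeR 4.0.16 (R 4.3.3, quasi-likelihood, 8 groups, all 60 libraries), with Benjamini-Hochberg adjustment. The fit was tested on simulated data. CPM were scaled by the TMM factors. Ratios used a pseudocount of 0.5 CPM and exact permutation tests (scipy 1.17.1). Alternatives were DESeq2 1.42.0, other scalings and filters, matched columns alone, the depth set (under or over 25000000 counts) as a term, other pseudocounts and no fold limit. Leaving out the 4 libraries high in lymph node markers, or library 6 of 12 h, was chosen after seeing the data. In each list the 3 genes of largest called change were named, and for each of the 10 genes the 3 of highest Spearman correlation. Members and lists were chosen with earlier results of these data known.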

Additional observations from a re-analysis of the deposited data

Results flagged for a closer look

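In 80 groups of libraries, 1 per gene and time, 6 had a highest or lowest library far from the others by Dixon's criterion, on the log2(CPM + 0.5) scale, where chance gives about 1 in 20. Library 6 of 12 h had 3.34 CPM of Ptx3, with the nearest library at 62.5. Library 2 of 4 h had 52.9 CPM of Vcan, with the nearest at 102. Library 7 of 8 h had 347 CPM of Adamts4, with the nearest at 145. Library 5 of 24 h had 69.7 CPM of Ptx3, with the nearest at 27.996. Library 6 of 16 h had 1.85 CPM of Has2, with the nearest at 3.32. Library 5 of the control had 2.60 CPM of Ptx3, with the nearest at 3.61.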

How the results depend on the processing

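For the 10 genes no log2 fold change that was called, and no ratio that passed its test, changed direction under the alternatives run. Of 1170 of their recomputed values, 1151 kept their side of the threshold, and the counts of the 10 called against the control stayed within 1.5 times. Counts in the related lists moved more with column totals: at 48 h the other ADAMTS genes turned from 1 higher and 2 lower to 4 and 1, and the chondroitin sulfate genes went from 4 to 11 higher. From 4 to 8 h the number of the 10 genes called lower was 0 when scaled by column totals, with matched columns alone, or without the 4 libraries high in lymph node markers, against 1, and by adjusted p alone 1 was higher. From 8 to 12 h 3 were lower when scaled by column totals, against 6. From 16 to 20 h 0 were lower with column totals and 2 with DESeq2, against 1. From 20 to 24 h 1 was higher with column totals, against 0. The Has1 to Has2 ratio at 48 h was -0.64 with a pseudocount of 2 CPM, against -0.48. With matched columns alone the 48 h difference from control was 2.51 for Adamts4 to Adamts1 and 0.25 for Adamts9 to Adamts5. There 48 h had 2 libraries, so the exact test could not pass at any difference. Apart from that small group the cause was not tested. Scaling by column totals moved the median log2 fold change of all genes to 0.65 at 48 h and 0.52 at 24 h, and the calls at 48 h to 4343 higher and 408 lower, against 1858 and 1168. Within the libraries under 25000000 counts and within those over it, all 57 called differences from the control kept their sign. No paired analysis was possible because the columns carry no replicate number that can be tied to an animal across groups. Single libraries were not left out in turn. The 48 h group rests on position for 6 of its 8 libraries, and counts near 1 CPM, as for Has1 and Adamts4 in the control, limit the precision of their fold changes.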
